A study of Mus musculus with 30 samples.

Results

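The genes described are the enzymes that add methyl groups to DNA, histones and other proteins, or take them off. They were chosen by symbol, as every row named Dnmt, Tet, Kdm, Kmt, Setd, Prmt, Ehmt, Suv39h, Nsd or Ezh with its number, with 1 Y-linked row left out. This gave 55 of the 14173 genes in the table, 37 of them listed by family as writers and 18 as erasers. The rule uses no measured value, but it was set with earlier results of these data known. Liver RNA came from 30 male C57BL6/J mice, 6 on each of 5 diets for 12 weeks, killed at 6 months of age after a 4 h fast. NP held 20% casein with 0.57 g methionine and 0.41 g cysteine per 100 g, and LP held 5% casein with 0.15 g and 0.1 g. Of the soy diets, 20Soy held 20% soy with 0.22 g of each amino acid, 20Soy_SAA held the same soy with both amino acids added to 0.58 g and 0.41 g, and 10Soy held 11.5% soy with 0.13 g of each. The labels name no transgene or deletion, and each mouse gave 1 library from a piece of whole liver. Before the experimental diets the casein mice had eaten NP and the soy mice 20Soy, so a history of casein or soy cannot be told apart from the protein source itself. Diet cysteine fell with methionine wherever a methionine-poor diet was set against its control, so the amino acids cannot be told apart there.

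Writers take their methyl group from S-adenosylmethionine, which is made from methionine, and release S-adenosylhomocysteine. DNA methyltransferases mark cytosines, SET domain enzymes mark lysines and PRMT enzymes mark arginines. Erasers of the JmjC family, and the TET enzymes that oxidise methylcytosine, need iron and alpha-ketoglutarate, whereas the LSD enzymes Kdm1a and Kdm1b use FAD. The liver holds a large part of the methionine cycle of the body. Transcript counts say nothing of the activity of an enzyme or of the level of a methyl mark, which were not measured here.

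Library totals ran from 7694015 to 14565542 counts. Values below are normalised counts, the deposited counts divided by a size factor of each library. They are not divided by gene length, since the QuantSeq assay reads the 3′ end of each transcript. The 55 genes had a median of 122 normalised counts over the 30 livers, beside 94.5 for all genes, and ran from 6.51 (Suv39h2) to 1276 (Kmt2e). Suv39h2 passed the filter on low counts in none of the comparisons as reported. Of the enzymes looked for by name, Tet1, Dnmt3l, Kdm4d, Prmt8 and Setd9 had no row in the table. Summed hepatocyte markers (8 of 8 genes) ran from 706042 to 940371, which fits the labelled tissue. Pancreas markers (6 of 8 in the table) summed to 6256 in 10Soy library 4 and to no more than 5.75 in the others.

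The 20Soy_SAA libraries 3 to 6 stood apart, library 3 by less than libraries 4 to 6. Across 11181 protein-coding genes, the slope of a library's log2 count on the GC content of the transcript's last 200 bases (its 3′ GC) lay between 0.0586 and 0.208 per 10% GC (centred log2 values) in these 4, and between -0.0688 and 0.0342 in the other 26 libraries. The members had a median 3′ GC of 42.7%, beside 43.0% for those genes, and ran from 23.0% (Kdm7a) to 59.5% (Kmt5c). Between libraries 3 to 6 and libraries 1 and 2 of the same diet, the log2 ratio of the members rose with their 3′ GC (r = 0.41 over 55 genes, beside 0.32 over 11181, with all points from the same 6 libraries). Called results that use the 20Soy_SAA diet are therefore given with and without these 4, apart from those of alternative fits.

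RefSeq promoters (GRCm38.p6) matched 44 of the 55 genes by symbol. In the 250 bases before the start, 37 of the 44 had over 50% GC and a CpG ratio (observed over expected) over 0.6, or 84.1%, beside 30.8% of 27025 genes. The number of CpG sites ran from 0 to 56 with a median of 17.5, beside a median of 5. The 27025 were all RefSeq genes, not only those in the table, each taken at its start of lowest coordinate. The members were protein-coding genes of the table, taken at the start nearest the gene's start, so the sets are unlike. Shown are the 5 promoters whose start lay within 250 bases of the gene's start in the table, among the genes that differed between LP and NP. Kdm5a, Kdm6b, Kmt2e and Nsd2 had no match, and the start given for Setd5 lay 27570 bases away. Capitals mark CpG sites, the dinucleotides that DNA methyltransferases act on, and each run reads 5′ to 3′ on the gene's strand. They lie at chr7:49778108-49778357 (+) for Prmt3, chr16:93603816-93604065 (-) for Setd4, chrX:18162325-18162574 (+) for Kdm6a, chr13:47043249-47043498 (+) for Kdm1b and chrX:8074761-8075010 (-) for Suv39h1.
Prmt3: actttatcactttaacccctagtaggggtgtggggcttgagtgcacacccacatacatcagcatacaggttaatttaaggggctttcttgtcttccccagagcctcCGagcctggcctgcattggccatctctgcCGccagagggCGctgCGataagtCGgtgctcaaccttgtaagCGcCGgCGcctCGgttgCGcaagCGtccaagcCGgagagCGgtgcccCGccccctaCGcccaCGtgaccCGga
Setd4: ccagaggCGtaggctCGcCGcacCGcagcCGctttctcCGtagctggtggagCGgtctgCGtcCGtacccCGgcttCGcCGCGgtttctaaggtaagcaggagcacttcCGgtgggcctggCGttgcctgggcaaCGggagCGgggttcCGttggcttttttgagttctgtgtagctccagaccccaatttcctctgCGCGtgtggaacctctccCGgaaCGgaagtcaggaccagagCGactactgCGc
Kdm6a: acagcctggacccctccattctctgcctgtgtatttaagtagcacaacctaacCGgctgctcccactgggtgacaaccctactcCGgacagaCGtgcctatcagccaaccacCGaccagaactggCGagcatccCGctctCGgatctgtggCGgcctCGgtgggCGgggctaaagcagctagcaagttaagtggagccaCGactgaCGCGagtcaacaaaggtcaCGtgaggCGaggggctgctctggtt
Kdm1b: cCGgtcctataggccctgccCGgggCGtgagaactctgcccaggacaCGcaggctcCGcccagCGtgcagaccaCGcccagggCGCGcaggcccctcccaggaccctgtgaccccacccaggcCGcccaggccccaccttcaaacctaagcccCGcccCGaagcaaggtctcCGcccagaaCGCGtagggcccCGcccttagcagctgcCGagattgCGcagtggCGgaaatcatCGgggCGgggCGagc
Suv39h1: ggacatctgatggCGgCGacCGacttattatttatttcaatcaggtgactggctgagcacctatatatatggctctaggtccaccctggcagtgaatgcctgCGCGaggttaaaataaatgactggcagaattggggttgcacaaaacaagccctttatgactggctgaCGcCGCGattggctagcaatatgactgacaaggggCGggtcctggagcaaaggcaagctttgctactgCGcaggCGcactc
The 5 hold 17, 24, 15, 22 and 11 CpG sites in that order. Both strands were searched for 5 short motifs, spelled out below, and for the NRF1 motif. GGGCGG was found in 28 of the 44 promoters, or 63.6%, beside 32.7% of all, and in the Prmt3, Kdm6a, Kdm1b and Suv39h1 runs above. CCAAT was in 43.2% of the members' promoters beside 34.2% of all, including Prmt3, Setd4 and Suv39h1. The NRF1 motif was in 15.9% beside 3.77%, Suv39h1 among them. CACGTG was in 9.09% beside 5.93% (Prmt3 and Kdm6a), TGATGNAA in 2.27% beside 3.54%, and TTGCGCAA in 2.27% beside 0.174%, in the Prmt3 run alone. These matches describe letters only, and their shares are set beside the same unlike set of all RefSeq genes.

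To ask how the enzymes followed diet methionine, a trend was fitted over all 30 livers with a term for the protein source. Its value is the log2 change from 0.58 to 0.13 g methionine per 100 g, and a gene was called at an adjusted p of 0.05 or less in edgeR's quasi-likelihood F test with Benjamini-Hochberg adjustment over all genes. Of 54 members tested, 14 were called, 7 higher and 7 lower on the methionine-poor diets. That is a share of 25.9%, beside 31.9% of all genes (15.9% higher and 16.0% lower). The higher ones were Kdm3a, Kdm5a, Kdm6a, Nsd2, Prmt3, Setd4 and Setdb1, and the lower ones Ehmt2, Ezh1, Kdm1b, Kdm5b, Prmt1, Prmt9 and Suv39h1. The changes were small: the median size over the members was 0.12 on the log2 scale, beside 0.16 over all genes, and the largest was 0.47. The median signed change was 0.05 for the members and 0.02 for all genes.

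Without the 20Soy_SAA libraries 3 to 6, 14 members were again called beside 24.8% of all genes, and 9 of them were shared. Ehmt2, Prmt1, Prmt9, Setdb1 and Suv39h1 lost the call, and Kdm6b, Kmt2e, Prmt2, Setd5 and Tet3 gained it. With the library GC slope as a covariate 12 members were called beside 21.6% of all genes, and 8 were shared with the first 14. Protein percent also differed between the diets, and with it as a covariate 6 members were called beside 14.6% of all genes. Of those 6, Ezh1, Kdm3a and Setdb1 were among the first 14, and Dnmt1, Kdm4c and Kmt5a were not. Within a protein source, protein content goes with methionine except between 20Soy and 20Soy_SAA. The fit with protein percent therefore leans on the 20Soy_SAA diet, and it was not repeated without libraries 3 to 6.

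**Figure D1:**
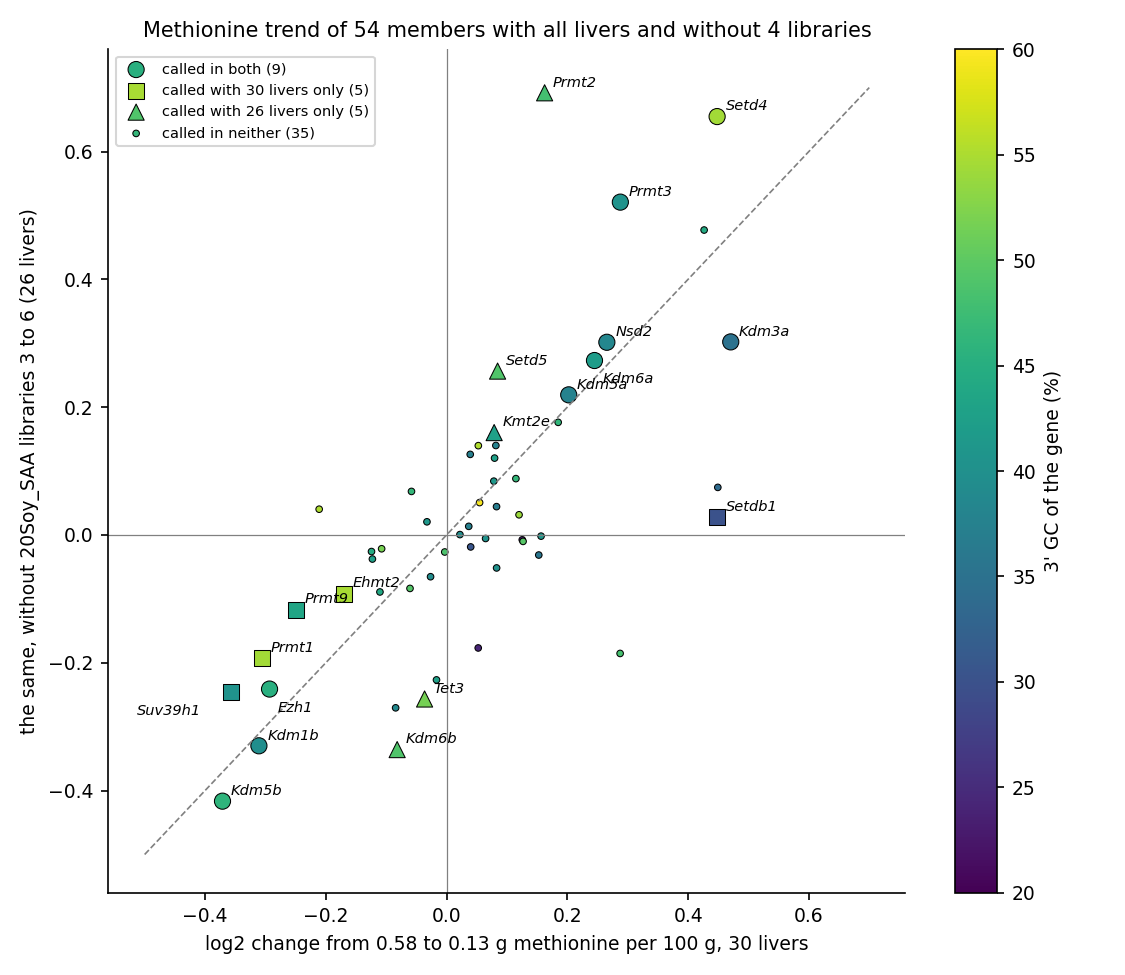
The log2 change of 54 members from 0.58 to 0.13 g methionine per 100 g with all 30 livers (horizontal) and without the 20Soy_SAA libraries 3 to 6 (vertical), coloured by 3′ GC in percent, with the dashed line marking equal values. Of the 14 called with all livers, 9 are also called without those libraries, whereas Setdb1, at 30.0% GC, moves from 0.45 to 0.03 and Setd4 from 0.45 to 0.65.

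Casein restriction uses none of those libraries. Between LP and NP, 10 of 54 members were called, or 18.5%, beside 24.9% of all genes. LP livers had more transcript of Kdm5a, Kdm6a, Kmt2e, Nsd2, Prmt3, Setd4 and Setd5 (11.6% of all genes were higher) and less of Kdm1b, Kdm6b and Suv39h1 (13.3% of all genes were lower). Their folds lay between 0.72 and 1.64. Where groups are said not to overlap, the share of all genes without overlap is not given. The median over the members was 0.08 on the log2 scale, beside 0.02 over all genes, and 34 of 54 values were above 0. Of 36 writers tested 5 were higher and 1 lower, with a median of 0.10, and of 18 erasers 2 were higher and 2 lower, with a median of -0.07. The writer and eraser values were not tested against each other.

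**Figure D2:**
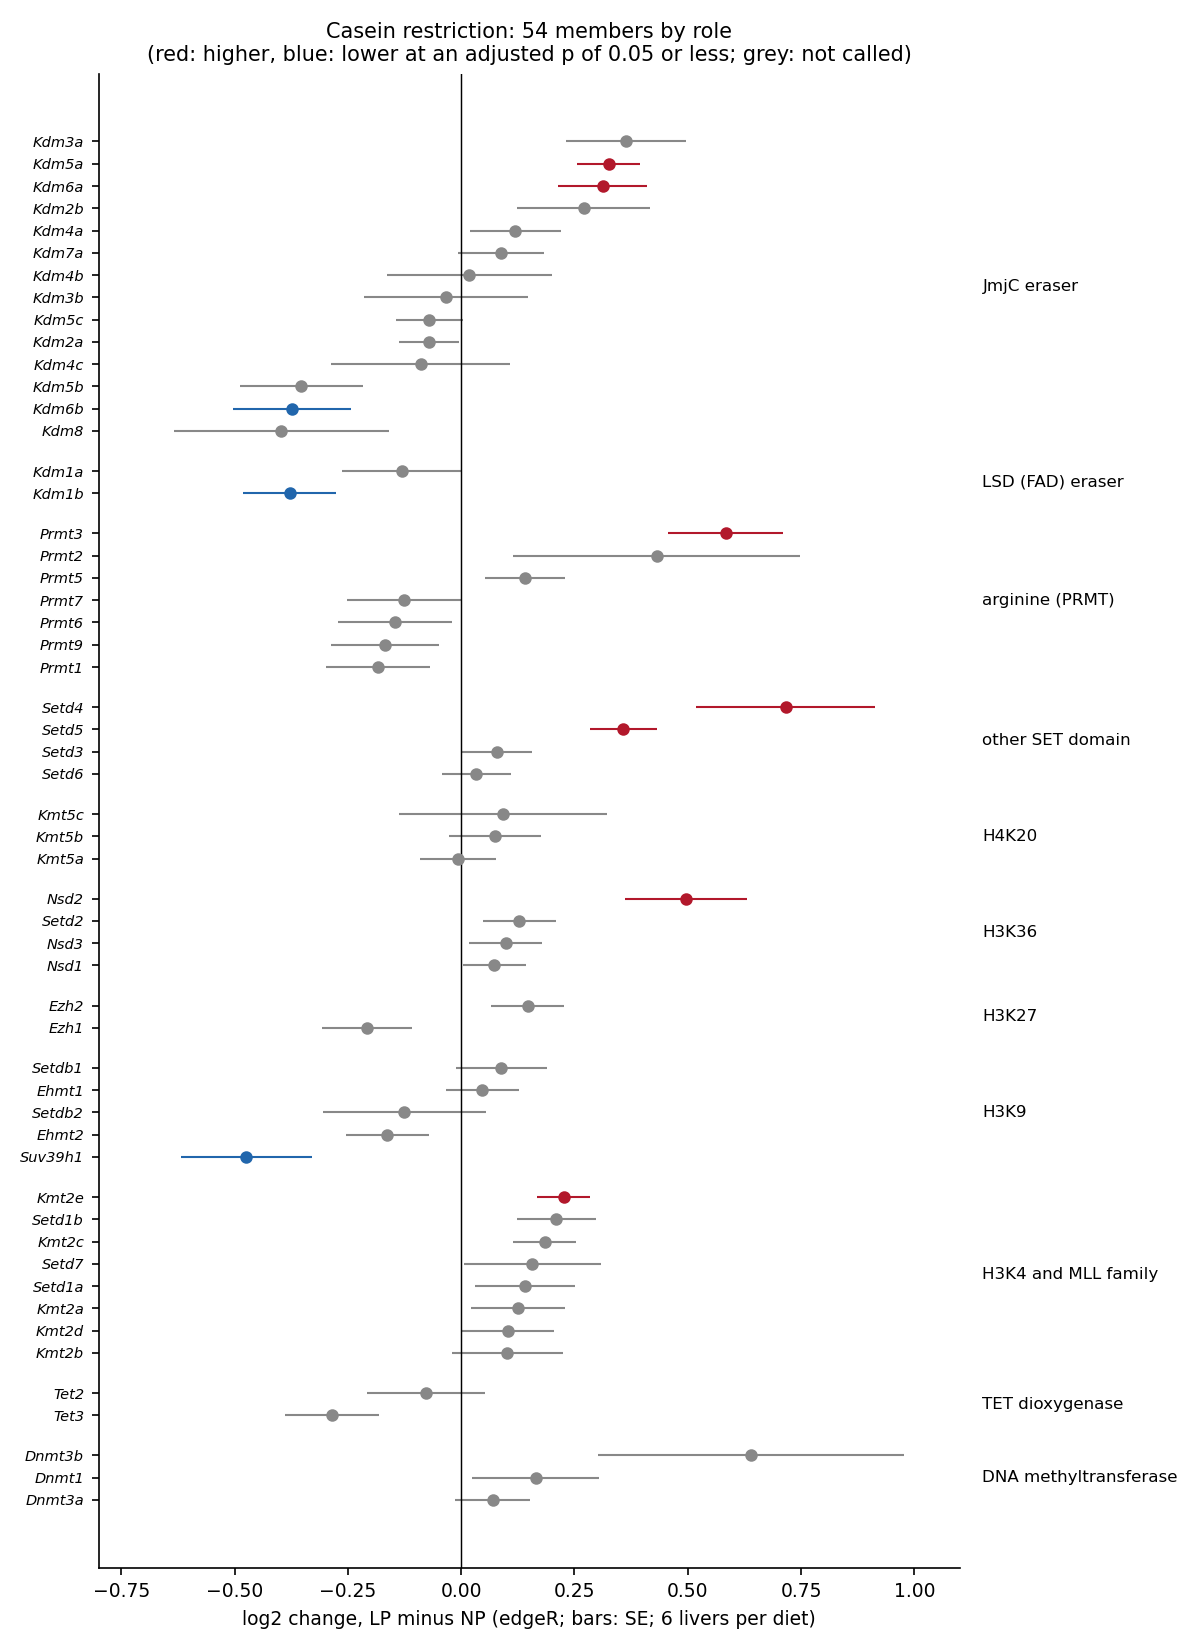
The log2 change from NP to LP of 54 members with its standard error, 6 livers per diet, grouped by role. The 8 genes of the H3K4 and MLL group all lie above 0, from 0.10 to 0.23, with Kmt2e alone called. So do all genes of the DNA methyltransferase (3), H3K36 (4) and other SET domain (4) groups. Each remaining group reaches below 0, and the JmjC erasers spread from -0.40 (Kdm8) to 0.36 (Kdm3a).

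Among DNA methylation enzymes, edgeR called no gene in the trend over 30 livers or between LP and NP, and DESeq2 called Tet3 between LP and NP, beside 25.3% of all genes in DESeq2. Dnmt1, which copies methylation after replication, had 83.5 ± 13.7 normalised counts in NP (mean ± SD, n = 6 here and throughout), 93.4 ± 17.9 in LP, 76.3 ± 7.34 in 20Soy, 97.9 ± 12.6 in 20Soy_SAA and 88.3 ± 12.2 in 10Soy. The 5 ranges of Dnmt1 overlapped, and its trend was -0.06 (SE 0.10, edgeR adjusted p = 0.69), 0.07 (adjusted p = 0.71) over 26 livers and -0.45 (adjusted p = 0.042) with protein percent as a covariate. That covariate fit used all 30 livers and was not repeated over the 26. Dnmt3a, the more abundant de novo enzyme, ran from a mean of 248 ± 42.3 in 20Soy to 294 ± 26.7 in LP (trend -0.06, SE 0.08, adjusted p = 0.58, and -0.08 over 26 livers). Dnmt3b, also de novo, lay at 17.7 ± 8.82 to 20.2 ± 4.27 in 4 diets and at 30.3 ± 12.5 in LP. Its LP livers ran from 13.6 to 46.1 and overlapped the NP livers at 6.97 to 35.5 (log2 change 0.64, SE 0.34, adjusted p = 0.18).

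The TET enzymes start the removal of DNA methylation. Tet2 had medians of 91.3 in NP, 84.3 in LP, 72.0 in 20Soy, 63.6 in 20Soy_SAA and 62.9 in 10Soy. In 10Soy it ran from 49.4 to 67.2, and 5 of 6 LP livers, at 79.7 to 104, lay above all of these, with the other at 63.1. The log2 difference between LP and 10Soy was 0.48 (SE 0.12, edgeR adjusted p = 0.015). In 20Soy_SAA, libraries 1 and 2 held 94.6 and 93.9 counts of Tet2, and libraries 3 to 6 held 48.5 to 63.9. With all 6 libraries 10Soy differed from 20Soy_SAA by -0.20 (SE 0.16, adjusted p = 0.41), and with libraries 1 and 2 alone by -0.63 (SE 0.14, adjusted p = 0.036). Tet3, the more abundant, had 168 ± 20.1 counts in NP and 137 ± 16.1 in LP, and 119 ± 29.5 to 133 ± 18.7 in the soy diets. The change of Tet3 from NP to LP was -0.29 (SE 0.10, adjusted p = 0.053 in edgeR and 0.044 in DESeq2). Its trend was -0.04 over 30 livers (adjusted p = 0.81) and -0.26 over 26 (SE 0.09, adjusted p = 0.026).

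**Figure D3:**
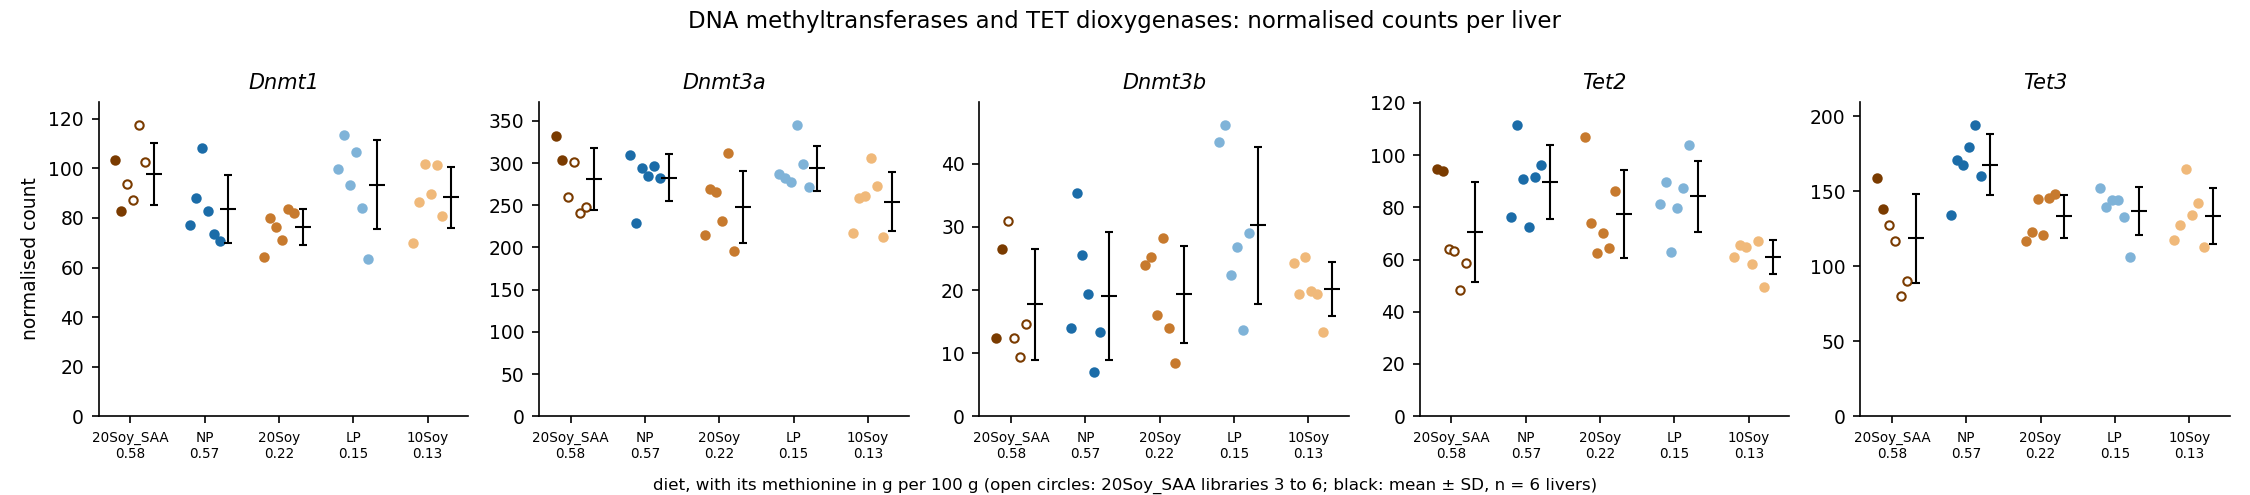
Normalised counts of 3 DNA methyltransferases and 2 TET enzymes in each of 30 livers, with diets in order of their methionine in g per 100 g, open circles for 20Soy_SAA libraries 3 to 6, and mean ± SD in black (n = 6). The ranges of Dnmt1, Dnmt3a and Dnmt3b overlap between diets, and the open circles of Tet2 lie at 48.5 to 63.9 below the filled ones at 94.6 and 93.9.

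Of the genes grouped by family with writers of lysine marks on histone H3, Kmt2e, Nsd2 and Suv39h1 were called between LP and NP. Kmt2e, a member of the MLL family by sequence (ENSMUSG00000029004, chr5:23434441-23504235, plus strand), ran from 1123 to 1266 with a median of 1196 in NP, and from 1303 to 1474 with a median of 1394 in LP. No LP liver overlapped an NP liver, and the log2 change was 0.23 (SE 0.06, edgeR adjusted p = 0.009). Srpk2, a splicing factor kinase with exons on the opposite strand at its 3′ end, fell by 0.40 on the log2 scale (SE 0.08, adjusted p = 0.0014). In the soy diets Kmt2e means lay at 1232 to 1291, and its trend was 0.08 (adjusted p = 0.19) over 30 livers and 0.16 (adjusted p = 0.013) over 26. The H3K4 writers Kmt2a, Kmt2b, Kmt2c, Kmt2d, Setd1a, Setd1b and Setd7 had changes of 0.10 to 0.21 from NP to LP, none of them called. Kmt2c, a writer of enhancer H3K4 methylation, was 667 ± 61.1 in LP and 579 ± 31.8 in 10Soy (log2 difference 0.22, SE 0.07, adjusted p = 0.041). The call of Kmt2c was kept in 3 of 12 fits that left out a liver and lost with no filter on low counts (adjusted p = 0.051).

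Of the H3K9 writers, which serve gene silencing and heterochromatin, Suv39h1 fell and Setdb1 depended on the 4 libraries. Suv39h1 (ENSMUSG00000039231, chrX:8061171-8074760, minus strand) ran from 41.5 to 64.8 with a median of 50.1 in NP, and from 29.7 to 42.5 with a median of 35.0 in LP. In 5 of 6 LP livers it lay below every NP liver (log2 change -0.47, SE 0.14, adjusted p = 0.024), and the call was lost without NP liver 2 (adjusted p = 0.056) or LP liver 5, and with the GC slope as a covariate (-0.43, adjusted p = 0.066). In 20Soy_SAA, libraries 1 and 2 held 29.6 and 40.9 counts of Suv39h1, and libraries 3 to 6 held 50.3 to 62.3. Its trend was -0.36 (adjusted p = 0.023) over 30 livers and -0.25 (adjusted p = 0.26) over 26. Setdb1 (ENSMUSG00000015697, chr3:95323525-95357202, minus strand) had 78.1 ± 8.26 counts in NP, 82.6 ± 6.89 in LP, 70.6 ± 5.91 in 20Soy and 72.4 ± 5.93 in 10Soy. In 20Soy_SAA it was at 83.1 and 69.6 in libraries 1 and 2 and at 24.2 to 32.6 in libraries 3 to 6, all 4 below the lowest of the other 26, 61.5. The trend of Setdb1 was 0.45 (SE 0.15, adjusted p = 0.02) with them and 0.03 (adjusted p = 0.85) without. Its 3′ end shares bases on the opposite strand with exons of Cers2, a ceramide synthase with a mean of 2189 counts. Cers2 fell by 0.50 on the log2 scale from NP to LP (SE 0.07, edgeR adjusted p = 4.6e-05). The trend of Cers2 over 30 livers was -0.10 (SE 0.12, adjusted p = 0.57). Ehmt1 and Ehmt2 form the complex that dimethylates H3K9. Ehmt1, the most abundant H3K9 writer here, lay at 297 ± 17.5 to 339 ± 24.8 and was not called in any comparison. Ehmt2 had 194 ± 18.6 counts in NP, 191 ± 31.8 in 20Soy_SAA and 169 ± 10.7 to 177 ± 18.2 in the 3 methionine-poor diets. The trend of Ehmt2 was -0.17 (SE 0.07, adjusted p = 0.047), lost in 20 of 30 fits that left out a liver, and -0.09 (adjusted p = 0.40) over 26 livers.

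Ezh1 and Ezh2 are the alternative catalytic subunits of Polycomb repressive complex 2, which writes H3K27 methylation. Ezh1 (ENSMUSG00000006920, chr11:101191115-101226463, minus strand) had 136 ± 6.21 counts in NP and 137 ± 16.4 in 20Soy_SAA, and 117 ± 17.9 in LP, 108 ± 13.7 in 20Soy and 111 ± 11.7 in 10Soy. Ezh1 fell with diet methionine by 0.29 on the log2 scale (SE 0.07, adjusted p = 0.0018), and the value was -0.24 (adjusted p = 0.033) over 26 livers and -0.43 (adjusted p = 0.018) with protein percent as a covariate. The fit with protein percent used all livers and was not repeated over the 26. Without the whole 20Soy_SAA diet the trend of Ezh1 was -0.21 and not called (adjusted p = 0.12). Ezh2, the subunit of dividing cells, lay between 92.9 ± 13.5 and 103 ± 4.8 (trend 0.04, SE 0.07, adjusted p = 0.71, and 0.13 over 26 livers). The difference between the trends of Ezh1 and Ezh2 was not tested.

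Nsd2 led the H3K36 writers, whose mark lies over transcribed genes. Nsd2 (ENSMUSG00000057406, chr5:33820725-33897975, plus strand) ran from 97.3 to 174 with a median of 107 in NP, and from 140.0 to 211 with a median of 166 in LP. NP liver 6, at 174, reached into the LP range, and the other 5 NP livers lay below all LP livers. The log2 change was 0.50 (SE 0.13, adjusted p = 0.012), and 0.62 without that liver. Soy means of Nsd2 were 144 ± 7.26 in 20Soy, 145 ± 13.5 in 20Soy_SAA and 155 ± 7.44 in 10Soy. Its trend was 0.27 (adjusted p = 0.015), 0.30 (adjusted p = 0.032) over 26 livers, 0.26 (adjusted p = 0.062) with the GC slope as a covariate, and -0.03 (adjusted p = 0.92) with protein percent as a covariate. Nelfa, a subunit of the negative elongation factor, has exons on the opposite strand at its 3′ end and rose by 0.33 (SE 0.11, adjusted p = 0.033) from NP to LP. Nsd3, the most abundant writer of the group at 753 ± 93.7 to 830 ± 46.8, changed by 0.10 (SE 0.08, adjusted p = 0.41). The H4K20 writers were not called in either fit. Kmt5a, which adds the first methyl group and peaks in mitosis, had 517 ± 77.5 counts in 20Soy_SAA and 607 ± 75.6 to 647 ± 88.8 elsewhere, with 472 as the mean of libraries 3 to 6 and 607 as that of libraries 1 and 2.

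Setd4 and Setd5, SET domain genes of less settled substrate, both rose from NP to LP. Setd4 (ENSMUSG00000022948, chr16:93583457-93604063, minus strand) ran from 28.0 to 42.1 with a median of 38.7 in NP, and from 41.6 to 89.8 with a median of 53.6 in LP. It was above every NP liver in 5 of 6 LP livers and had the largest called change, 0.72 (SE 0.20, adjusted p = 0.013), with a wide spread within LP. The trend of Setd4 was 0.45 (adjusted p = 0.013) over 30 livers and 0.65 (adjusted p = 0.0027) over 26. Its call was lost with protein percent as a covariate and in a fit of the 3 soy diets only. Setd5 (ENSMUSG00000034269, chr6:113077365-113153435, plus strand) ran from 303 to 362 with a median of 344 in NP, and from 372 to 486 with a median of 424 in LP. The groups did not overlap (log2 change 0.36, SE 0.07, adjusted p = 0.0018). In the soy diets Setd5 means were 356 ± 22.5, 400 ± 42.5 and 370 ± 36.4 in 20Soy, 20Soy_SAA and 10Soy. Setd3, the actin histidine methyltransferase, was the most abundant of this group at 495 ± 47.2 to 542 ± 20.8 and was not called from NP to LP (0.08, SE 0.08, adjusted p = 0.51).

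Arginine methyltransferases moved in both directions. Prmt3, a cytosolic enzyme that methylates the ribosomal protein Rps2 (ENSMUSG00000030505, chr7:49778346-49858265, plus strand), ran from 50.1 to 74.1 with a median of 56.3 in NP, and from 67.4 to 107 with a median of 86.9 in LP. In 5 of 6 LP livers it was above every NP liver, and the log2 change was 0.58 (SE 0.13, adjusted p = 0.0028). In the soy diets Prmt3 lay at 70.3 ± 13.9, 70.6 ± 11.4 and 73.2 ± 9.04 in 20Soy, 20Soy_SAA and 10Soy. The trend of Prmt3 was 0.29 (adjusted p = 0.035), 0.52 (adjusted p = 0.00089) over 26 livers and -0.04 (adjusted p = 0.91) with protein percent as a covariate. Over 30 livers the call was kept in 21 of 30 fits that left out a liver and lost with the replicate block (adjusted p = 0.051). Prmt1, the main source of asymmetric dimethylarginine (ENSMUSG00000109324, chr7:44975989-44986568, minus strand), had 335 ± 59.6 counts in NP, 292 ± 35.1 in LP, 291 ± 32.5 in 20Soy, 334 ± 59.7 in 20Soy_SAA and 244 ± 34.4 in 10Soy. The trend of Prmt1 was -0.31 (SE 0.09, adjusted p = 0.0073) over 30 livers and -0.19 (adjusted p = 0.15) over 26. Prmt9, a symmetric enzyme of splicing factors, had a trend of -0.25 (adjusted p = 0.023), and -0.12 (adjusted p = 0.39) over 26 livers. Its counts were 74.5 and 92.7 in 20Soy_SAA libraries 1 and 2 and 92.0 to 134 in libraries 3 to 6. Prmt5, the main symmetric enzyme, lay between 125 ± 12.3 and 151 ± 15.1 (trend 0.05, SE 0.07, adjusted p = 0.58, and 0.14 over 26 livers). Prmt2, with 8.16 to 12.0 counts on average, was called only over the 26 livers (0.69, adjusted p = 0.047) and with the GC slope as a covariate (0.70, adjusted p = 0.045).

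Among the erasers, Kdm1b, an LSD enzyme that removes H3K4 methylation and is needed for imprints in oocytes (ENSMUSG00000038080, chr13:47043499-47085279, plus strand), gave a fall that held in every fit that left out a liver. NP livers ran from 122 to 153 with a median of 140.3, and LP livers from 84.2 to 121 with a median of 112, with no overlap. Kdm1b fell by 0.38 on the log2 scale (SE 0.10, adjusted p = 0.013). Soy means of Kdm1b were 144 ± 17.7 in 20Soy_SAA, 125 ± 16.8 in 20Soy and 122.7 ± 11.4 in 10Soy, and the trend was -0.31 (adjusted p = 0.0013) over 30 livers and -0.33 (adjusted p = 0.0053) over 26. The trend call of Kdm1b was lost with protein percent as a covariate and in a fit of the 3 soy diets only. Dek, with exons on the opposite strand at its 3′ end, moved the other way from NP to LP (0.31, SE 0.10, adjusted p = 0.029). Its paralog Kdm1a was not called (LP against NP -0.13, SE 0.13, adjusted p = 0.51).

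Of 14 JmjC erasers, 3 were higher and 1 lower in the trend, and 2 were higher and 1 lower in LP against NP, beside 31.9% and 24.9% of all genes called. Kdm5a, which removes H3K4 trimethylation (ENSMUSG00000030180, chr6:120364124-120444574, plus strand), ran from 380 to 461 with a median of 445 in NP, and from 479 to 587 with a median of 547 in LP. The groups did not overlap (log2 change 0.33, SE 0.07, adjusted p = 0.0023). Its paralog Kdm5b had 244 ± 58.2 counts in NP, 245 ± 57.5 in 20Soy_SAA, and 187 ± 30.9 to 205 ± 17.6 in the 3 methionine-poor diets. Kdm5b fell with diet methionine by 0.37 (SE 0.10, adjusted p = 0.0041), with -0.42 (adjusted p = 0.0048) over 26 livers, while Kdm5a rose by 0.20 (SE 0.05, adjusted p = 0.0046), with 0.22 (adjusted p = 0.0098) over 26. With protein percent as a covariate neither was called, at adjusted p = 0.22 for Kdm5b and 0.81 for Kdm5a.

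The H3K27 erasers also went in opposite directions from NP to LP. Kdm6a (ENSMUSG00000037369, chrX:18162575-18279936, plus strand) ran from 96.3 to 133 with a median of 109 in NP, and from 124 to 164 with a median of 138 in LP. In 3 of 6 LP livers it lay above all NP livers (0.31, SE 0.10, adjusted p = 0.027), and the call was lost in 6 of 12 fits that left out a liver. Kdm6b, induced in inflammation (ENSMUSG00000018476, chr11:69398508-69413675, minus strand), ran from 78.1 to 135 with a median of 113 in NP, and from 68.6 to 102 with a median of 84.3 in LP. The groups overlapped (log2 change -0.37, SE 0.13, adjusted p = 0.046), and the call was kept in 3 of 12 such fits and lost with the GC slope as a covariate (-0.31, adjusted p = 0.12). Kdm3a, an H3K9 eraser induced by hypoxia (ENSMUSG00000053470, chr6:71588972-71632990, minus strand), had 91.8 ± 15.5 counts in NP, 117 ± 18.9 in LP, 102 ± 10.2 in 20Soy, 73.1 ± 17.3 in 20Soy_SAA and 104 ± 16.3 in 10Soy. The trend of Kdm3a was 0.47 (SE 0.10, adjusted p = 0.00052), and 0.30 (adjusted p = 0.032) over 26 livers. Kdm2a, an H3K36 eraser that binds unmethylated CpG islands, was the most abundant of the family at 485 ± 19.6 to 543 ± 35.6 and was not called by edgeR in any of the comparisons, while DESeq2 called it in the trend, beside 32.8% of all genes (edgeR value -0.11, SE 0.05, adjusted p = 0.072).

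**Figure D4:**
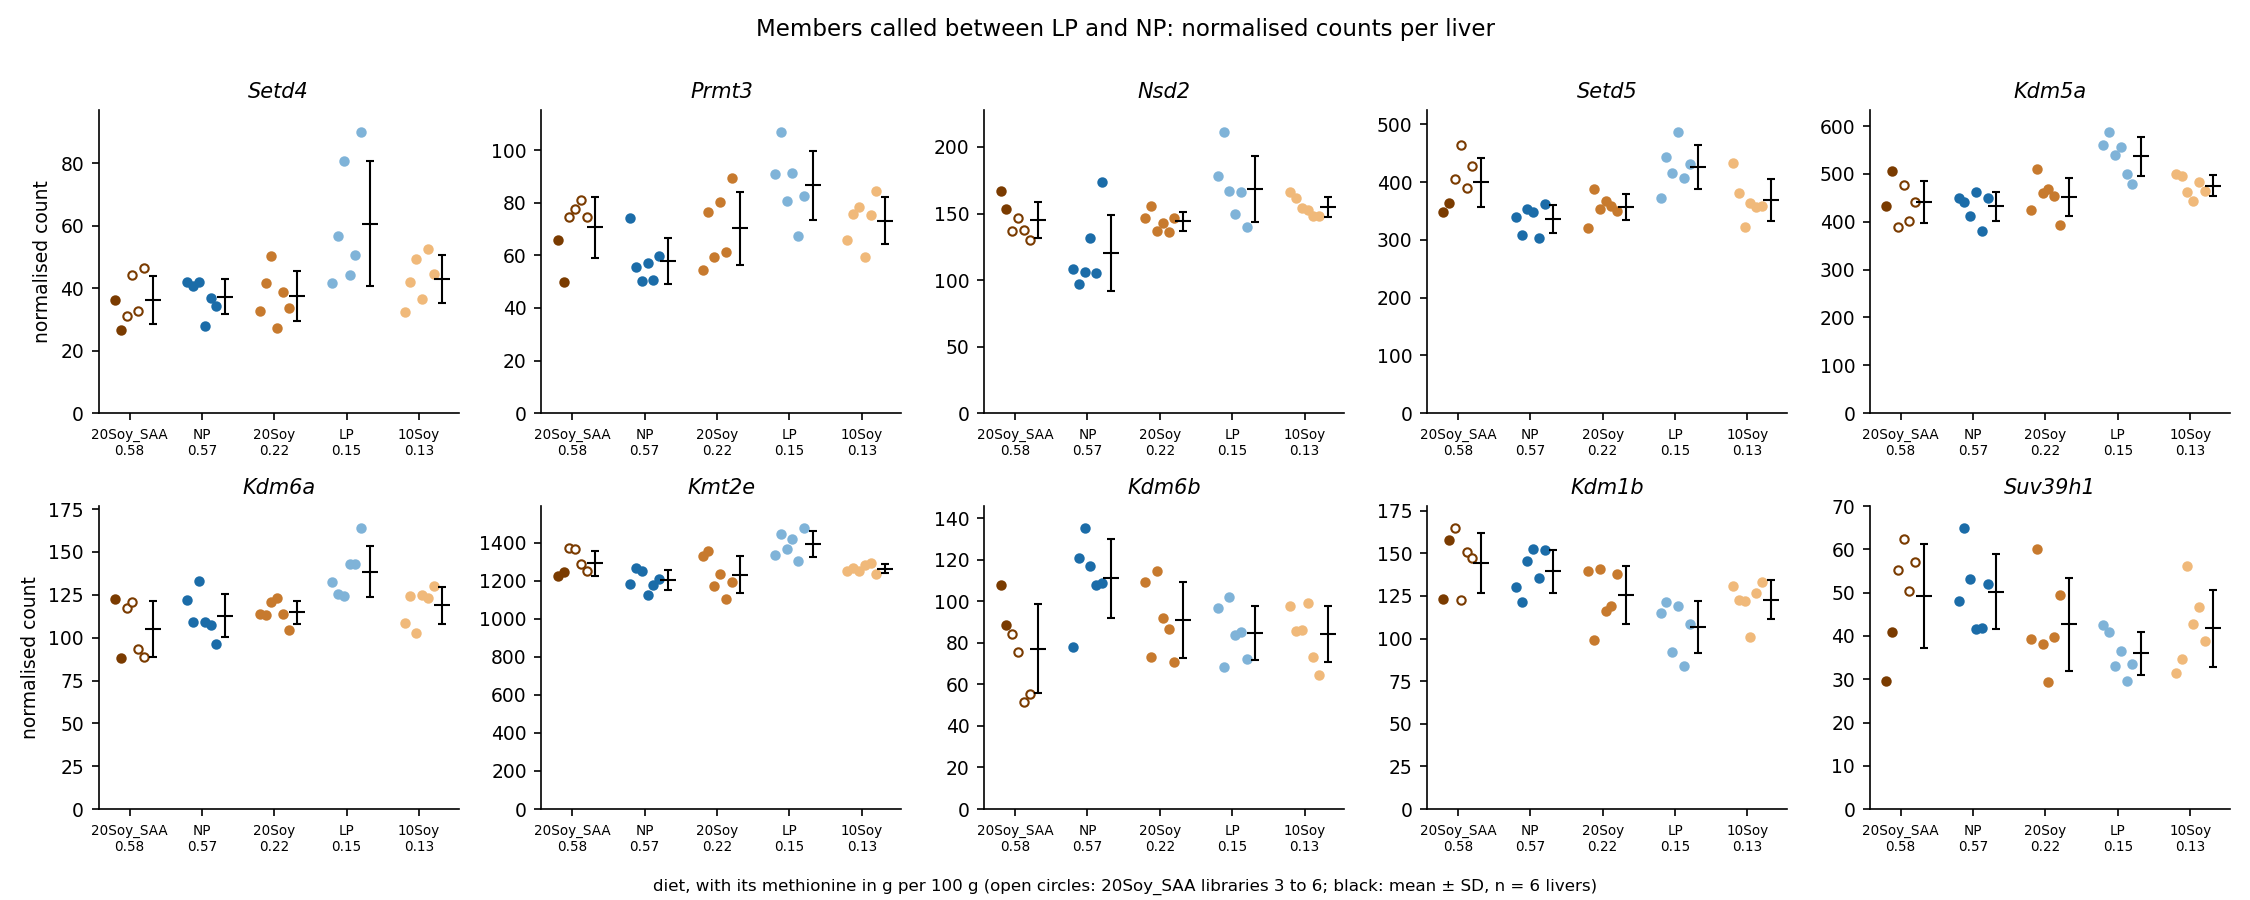
Normalised counts of the 10 members called between LP and NP in each of 30 livers, with diets in order of their methionine in g per 100 g, open circles for 20Soy_SAA libraries 3 to 6, and mean ± SD in black (n = 6). For Setd5, Kdm5a, Kmt2e and Kdm1b no LP liver overlaps an NP liver, and for Setd4 the LP livers spread from 41.6 to 89.8. The genes shown were called in these same livers, and the share of all genes without overlap is not given.

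Soy restriction was read against both soy controls. Between 10Soy and 20Soy_SAA, 5 of 53 members were called, or 9.43%, beside 17.0% of all genes. Kdm4c, an H3K9 and H3K36 eraser, ran from 8.48 to 31.5 with a median of 12.3 in 20Soy_SAA, and from 21.9 to 41.6 with a median of 28.3 in 10Soy (log2 change 0.93, SE 0.28, adjusted p = 0.036). Kdm3a was higher in 10Soy by 0.51 (SE 0.16, adjusted p = 0.038). Kdm4a, a paralog of Kdm4c, ran from 295 to 374 in 20Soy_SAA and from 241 to 312 in 10Soy (-0.32, SE 0.08, adjusted p = 0.02). Prmt1 ran from 270 to 407 in 20Soy_SAA and from 201 to 286 in 10Soy (-0.45, SE 0.12, adjusted p = 0.023). Ezh1 was lower in 10Soy by 0.31 (SE 0.10, adjusted p = 0.048). The call of Ezh1 was kept in 1 of 12 fits that left out a liver. Kdm4c kept its call in 3 of them, Kdm3a in 4 and Kdm4a in 12. The groups of all 5 genes overlapped.

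None of the 5 was called without the 20Soy_SAA libraries 3 to 6, where 1 other member, Tet2, was called beside 2.54% of all genes. None was called with the GC slope as a covariate, where 0 members were called beside 2.63% of all genes. Without the 4 libraries Kdm4a was at -0.31 (SE 0.11, adjusted p = 0.15), Ezh1 at -0.26, Prmt1 at -0.21, Kdm3a at 0.15 and Kdm4c at 0.39. Leaving out library 3, 4, 5 or 6 alone gave 1 or 2 called members, and leaving out library 1 gave 8. Without 10Soy library 4, which held the pancreas transcripts, 3 members were called. The share of all genes called in these fits that left out a liver is not given. Against 20Soy, whose diet lacks the added amino acids, 0 of 53 members were called by edgeR or DESeq2, beside 0.866% of all genes in edgeR and 1.92% in DESeq2, with 3 at an unadjusted p under 0.05 in edgeR and 2 in DESeq2. Of the 5 genes, Prmt1 had the widest gap there (-0.25, SE 0.10, adjusted p = 0.26), and the others lay between -0.07 and 0.13.

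**Figure D5:**
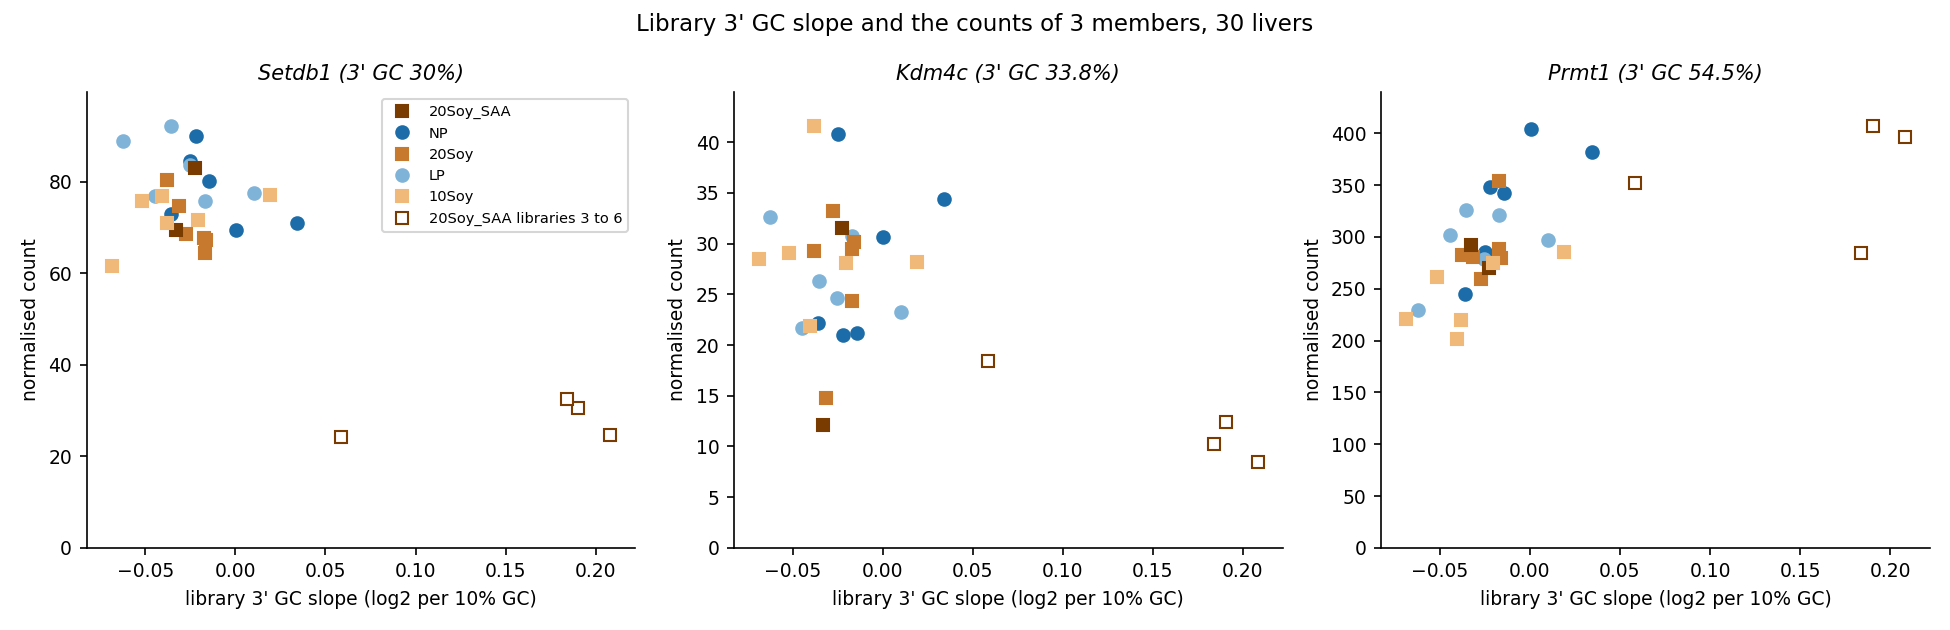
Normalised counts of Setdb1, Kdm4c and Prmt1 in 30 livers (vertical) against the 3′ GC slope of the library in log2 per 10% GC (horizontal), with circles for casein diets, squares for soy diets and open squares for 20Soy_SAA libraries 3 to 6. The open squares lie at slopes of 0.0586 (library 3) and 0.184 to 0.208 (libraries 4 to 6), beside at most 0.0342 in the other libraries. They lie at 24.2 to 32.6 for Setdb1 and at 8.48 to 18.4 for Kdm4c, while for Prmt1 they run from 284 to 407.

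Between 20Soy and 20Soy_SAA, the pair with equal soy content, 0 of 52 members were called in edgeR beside 0.00838% of all genes (1 gene), with 6 at an unadjusted p under 0.05. DESeq2 called Kdm3a there, beside 7.42% of all genes. Leaving out 20Soy_SAA library 1 gave 5 called members and leaving out library 2 gave 2. The share of all genes called in these fits is not given, so the counts are not read as particular to the members. Between NP and 20Soy_SAA, which are matched in both amino acids, 0 of 54 were called in edgeR beside 2.43% of all genes, with 9 at an unadjusted p under 0.05, and DESeq2 called Setd5, Setdb1 and Tet3, beside 9.63% of all genes. Without libraries 3 to 6 edgeR also called 0 members in either comparison, beside 0 of 12396 and 3 of 12498 genes. Between LP and 10Soy, which have nearly equal methionine and share none of the 4 libraries, 2 of 54 were called, Tet2 and Kmt2c, beside 10.7% of all genes. Both were higher in LP, as were 46 of the 54 values, with a median of 0.13 beside 0.01 over all genes. Between these livers stellate markers (4 of 8 higher in LP) summed to 4358 to 5685 in LP and 3969 to 4507 in 10Soy, and cholangiocyte markers (1 of 2 tested higher) to 367 to 510 and 266 to 352, and their part in this shift was not tested. Kmt2e did not overlap between LP and 10Soy (0.16, SE 0.05, adjusted p = 0.061), with no share of all genes without overlap given. Without 10Soy library 4, 6 members were called between LP and 10Soy, again with no share of all genes given.

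The casein effect (LP minus NP) was set against the soy effect (10Soy minus 20Soy_SAA) in one fit of 24 livers. Of 54 members 3 differed, beside 8.69% of all genes. Setd5 changed by 0.36 under casein restriction and by -0.12 under soy restriction (difference 0.47, SE 0.11, adjusted p = 0.013). Kmt2e changed by 0.23 and -0.03 (difference 0.25, SE 0.07, adjusted p = 0.03), and Kdm4a by 0.12 and -0.32 (difference 0.43, SE 0.13, adjusted p = 0.042). Without libraries 3 to 6 the differences were 0.30, 0.19 and 0.43 with adjusted p = 0.23, 0.26 and 0.17, and none was called. With 20Soy as the soy control they were 0.30, 0.19 and 0.19 with adjusted p = 0.071, 0.15 and 0.58.

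Other genes of the pathway gave the setting. Of 15 genes of S-adenosylmethionine supply and use outside chromatin, 2 rose and 8 fell from NP to LP, with a median of -0.29. Gnmt, which disposes of surplus S-adenosylmethionine as sarcosine, went from 34262 ± 6188 to 10606 ± 831 normalised counts (log2 change -1.68, SE 0.11, adjusted p = 1.3e-08). Bhmt, which remethylates homocysteine, went from 12099 ± 1535 to 1861 ± 678 (-2.69, SE 0.21, adjusted p = 1.1e-07). Nnmt, which methylates nicotinamide, went from 898 ± 360.3 to 29.1 ± 6.26 (-4.95, SE 0.26, adjusted p = 3.3e-09). No member changed by as much as 1 log2 unit, which 430 of all 12076 genes did. With so small a share of all genes, the absence is not read as particular to the members.

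Of 30 partners and readers of the enzymes, 27 were tested, and 3 rose and 1 fell from NP to LP. Rcor1, the partner of Kdm1a, rose by 0.37 (SE 0.08, adjusted p = 0.0022), and Cxxc1, the CpG-binding subunit of the Setd1 complexes, by 0.23 (SE 0.07, adjusted p = 0.025). Jarid2, a subunit of Polycomb repressive complex 2, fell by 0.31 (SE 0.08, adjusted p = 0.008). Of 30 other methylation enzymes, Jarid2 listed among them too, 27 were tested, and 4 rose and 3 fell. Eef1akmt1, a lysine methyltransferase of elongation factor 1A, fell by 0.59 (SE 0.13, adjusted p = 0.0027), and Trdmt1, a transfer RNA methyltransferase, by 0.70 (SE 0.19, adjusted p = 0.012).

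Several of these enzymes are more abundant in dividing cells, and of 15 proliferation genes 13 were tested, with 1 higher and 1 lower in LP. These were Mcm7 (0.37, SE 0.12, adjusted p = 0.031) and Birc5 (-1.08, SE 0.33, adjusted p = 0.024), while Mcm2 was at -0.52 (SE 0.19, adjusted p = 0.053). The summed level of all 15 ran from 648 to 835 in NP and from 661 to 750 in LP. Markers of other liver cells moved in part between the same livers. Stellate cell markers (2 of 8 higher) summed to 3891 to 4605 in NP and 4358 to 5685 in LP, endothelial markers (2 of 8 higher) to 3749 to 4190 and 4110 to 4479, and erythroid markers (4 of 5 lower) to 15728 to 34944 and 11503 to 19812. Kupffer cell markers (0 of 10 called) summed to 3459 to 5936 and 3913 to 5449, and of cholangiocyte and lymphocyte markers 0 of 2 and 0 of 3 tested were called. The part of these cells in the results was not tested. In whole liver, fewer cells of a type and less RNA per cell cannot be told apart.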

How the data were processed

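Liver RNA of 30 mice was read with the Lexogen QuantSeq 3′ kit on a NextSeq 500, and the authors ran Lexogen's QuantSeq pipeline. The submitters' processing notes name GRCm38, mm10, R 4.0.3 and DESeq2 1.30. The aligner, the counting program and its use of strand are not given in the sources used here, so antisense overlap at 3′ ends (7 of 55 members) leaves those counts uncertain. The deposited raw counts are whole reads per gene. The deposited normalised values are a signal, counts that the authors divided by a size factor per library, with no scaling for length. Totals of 7694015 to 14565542 per library set the precision. Groups follow the labelled diets.

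Here edgeR 4.0.16 (R 4.3.3) was run on the counts of all genes with filterByExpr, TMM scaling and its quasi-likelihood F test (no direction assumed), and p-values were adjusted by Benjamini and Hochberg's method with a threshold of 0.05. Each SE is the size of the log2 change over the root of F. Checks on simulated counts preceded the fits. DESeq2 1.42.0, other filters and scalings, a library GC covariate, a replicate block and leaving out libraries were alternatives. Slopes were fitted over protein-coding genes with a mean of 10 or more. Named are members called in the trend, LP against NP or 10Soy against a soy control (up to 15 each), the member with the highest count in each role list, Dnmt1, Dnmt3a, Dnmt3b, Tet1, Tet2, Tet3, Ezh1, Ezh2, Prmt1 and Prmt5, and up to 3 genes per context list by p in LP against NP. Kdm1a, Kdm7a, Kdm8, Kmt5c, Prmt2, Suv39h2, antisense partners and the rest of the H3K4 and MLL group were named after their values were seen. Members and lists were chosen with earlier results of these data known. Figures used matplotlib 3.10.9.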

Additional observations from a re-analysis of the deposited data

Results flagged for a closer look

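Among the 31 named members, 155 diet groups of 6 livers were screened for a liver far from the other 5, and 7 were found, where chance gives about 1 in 20. Dnmt3a stood at 228.95 normalised counts in NP liver 2 (others 282.38 to 309.39) and at 344.9 in LP liver 4 (others 271.98 to 299.09). Ehmt1 was low in 10Soy liver 3, at 290.5 (others 338.24 to 357.76). Kdm1b was low in 10Soy liver 4, at 101.16 (others 122.01 to 132.98), the library with pancreas transcripts. Kdm4c was high in 10Soy liver 1, at 41.63 (others 21.85 to 29.06). Prmt1 was high in 20Soy liver 2, at 354.0 (others 259.46 to 288.4), and Prmt5 low in NP liver 5, at 114.51 (others 140.09 to 145.76).

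The casein and soy effects differed by 0.433 for Kdm4a, 0.253 for Kmt2e and 0.468 for Setd5 on the log2 scale, by the test of the difference itself in edgeR. All 3 rest on the 20Soy_SAA diet, and none was called without its libraries 3 to 6.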

How the results depend on the processing

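Of 34 member results called in the 8 comparisons, 34 were called again with DESeq2, with DESeq2 size factors in edgeR and with at least 10 counts in every liver, and 31 with no filter on low counts. The GC slope covariate kept 18 of 34. Without 20Soy_SAA libraries 3 to 6, 9 of the 22 that use this diet were kept. Direction turned for 2 trend values, both with diet protein percent as a covariate, Nsd2 to -0.0279 and Prmt3 to -0.0388, and the cause was not tested.

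The number of members called in the trend was 14. With diet protein percent as a covariate it was 6, of which 3 were shared, beside 14.6% of all genes. In the 3 soy diets only it was 8, of which 5 were shared, beside 24.7% of all genes. An alternative added after seeing the data, without the 20Soy_SAA diet, gave 14, of which 9 were shared, beside 29.5% of all genes. There Ehmt2, Ezh1, Prmt1, Prmt9 and Setdb1 lost the call. For 10Soy against 20Soy_SAA the number of members went from 5 to 0 with the GC slope, beside 2.63% of all genes. It went to 1 without libraries 3 to 6, beside 2.54%. DESeq2 gave 1 for 20Soy against 20Soy_SAA, beside 7.42% of all genes, and 3 for NP against 20Soy_SAA, beside 9.63%. It gave 4 for LP against 10Soy, beside 12.1%, and 5 for the interaction of restriction with protein source, beside 10.9%. LP against 10Soy had 1 with no filter, beside 8.91% of all genes. It had 4 with at least 10 counts in every liver, beside 11.4%. That interaction had 0 with the GC slope, 0 without libraries 3 to 6 and 0 with 20Soy as the soy control. The shares of all genes there were 3.96%, 2.27% and 5.99%.

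Leaving out each liver in turn gave 11 to 16 members in the trend, 7 to 12 for LP against NP, 1 to 8 for 10Soy against 20Soy_SAA, 0 to 5 for 20Soy against 20Soy_SAA, 0 for 10Soy against 20Soy and 1 to 6 for LP against 10Soy. The 8 came without 20Soy_SAA liver 1, the 5 without 20Soy_SAA liver 1 and the 6 without 10Soy liver 4. The share of all genes called in these fits is not given, so the ranges are not read as particular to the members.

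Replicate numbers did not pair the livers: between diets, same-numbered livers correlated at -0.242 to 0.342, with at most 4 of 6 pairs over 0.1. With the replicate block 12 members were called in the trend, 9 for LP against NP and 5 for 10Soy against 20Soy_SAA. The shares of all genes there were 30.3%, 21.2% and 15.9%. The same block gave 6 members for LP against 10Soy and 4 for the interaction, beside 10.7% and 9.84% of all genes. At most 3 of 6 livers correlated best with their own number.

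Over all genes, the number called went from 3929 to 1822 in the trend with diet protein percent as a covariate. For 10Soy against 20Soy_SAA it went from 2035 to 329 with the GC slope and to 317 without libraries 3 to 6. For NP against 20Soy_SAA it went from 291 to 5 with the GC slope, 3 without those libraries, 185 with the replicate block and 1155 in DESeq2. For the interaction it went from 1089 to 512 with the GC slope and 296 without the libraries. DESeq2 called 885 genes for 20Soy against 20Soy_SAA, where edgeR called 1 (0 to 2 under its other settings), and 228 for 10Soy against 20Soy, where edgeR called 103.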
